A study of Sus scrofa with 2 samples.

Results

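Interferon-induced antiviral effector genes encode the proteins that act on a virus after a cell has sensed interferon. The 10 genes described here are RSAD2, MX1, MX2, IFIT1, IFIT2, IFIT3, IFIT5, IFI44, IFI44L and ISG15. They were selected on their FPKM values in these same samples, so their own differences are a description and support nothing. Of the 10, 8 had a row among the 25322 gene IDs of the table, and the IDs paired with IFIT3 and ISG15 had no row, so both are named without a value. RNA was sequenced from the hippocampus of wild type Rongchang piglets in 1 sample from iron dextran treatment and 1 control sample. Iron dextran, iron held in a dextran complex, is injected into piglets to prevent iron deficiency. The sources used here do not give the dose, the time after treatment or the age of the piglets, and each label lists 2 names without saying whether these were animals, libraries or runs. With 1 sample per group there was no spread between replicates, no test was made, and no difference below has a replicate check.

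Type I interferons bind a receptor at the cell surface whose Janus kinases phosphorylate STAT proteins. These join IRF9, and the complex binds a response element in the promoters of antiviral genes and raises their transcription. The products act at different steps of viral growth: some bind viral RNA, some trap viral particles or nucleocapsids, some change nucleotide pools and some are attached to other proteins. In brain, neurons, astrocytes, microglia and endothelial cells can all respond to interferon, and a low level of many of these transcripts is present without infection.

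The unit is FPKM, which scales fragments by gene length and by the mapped total, so levels can be compared between genes per length. FPKM summed to 850165 in iron dextran and 924070 in control, and 16865 IDs were above 0 in iron dextran and 16727 in control. The number of sequenced fragments is unknown; of 690 genes with low values, 366 (53.0%) had a ratio within 0.05 log2 units of 1, 2 or 0.5 times a common ratio. If these are taken as steps of whole fragments, the iron dextran sample had 1.06 times the depth of control. Markers of neurons were high in both samples, with SLC17A7 at 611 FPKM in iron dextran and 658 FPKM in control. Of the hippocampal markers, FIBCD1 had 28.8 FPKM in iron dextran and 29.6 FPKM in control, and C1QL2 had 10.3 FPKM in iron dextran and 10.9 FPKM in control. C1QL3 had 16.5 FPKM in iron dextran and 11.5 FPKM in control, a difference of 0.48 in log2(FPKM + 1), whereas PROX1 and ZBTB20 were below 1 FPKM in both.

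All 8 genes with a value were higher in the iron dextran sample than in control. Over all 12557 genes with a mean of at least 1 FPKM, the median difference in log2(FPKM + 1) was −0.00464. Slightly more of these genes were therefore lower than higher. Summed over the 8 genes, the level was 83.6 FPKM in iron dextran and 43.3 FPKM in control, a ratio of 1.93. MX1 alone made up 42.6% of that sum in iron dextran and 53.7% in control, and without it the sums were 48.0 FPKM in iron dextran and 20.1 FPKM in control, a ratio of 2.40. The ratio of single genes, iron dextran over control, ran from 1.45 for IFIT5 to 37.7 for RSAD2, with a median of 2.43.

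**Figure D1:**
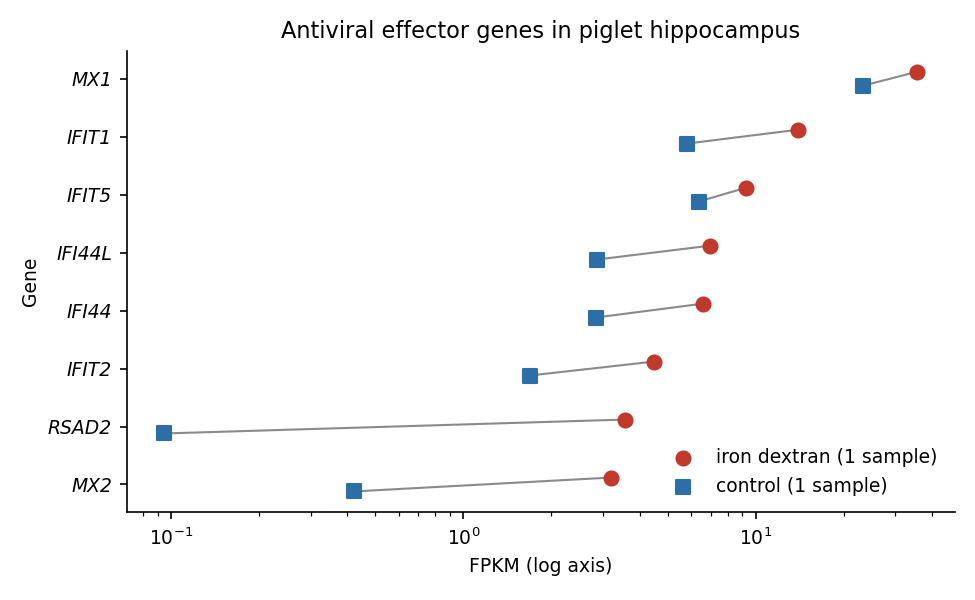
FPKM on a log axis for the 8 genes with a value, ordered by level in iron dextran. Circles are the iron dextran sample and squares the control sample, 1 sample each. Every circle lies to the right of its square, and the gap is widest for RSAD2 (3.57 FPKM in iron dextran, 0.0948 FPKM in control) and MX2 (3.21 FPKM in iron dextran, 0.422 FPKM in control).

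Differences were computed as log2(FPKM + 1) in iron dextran minus the same in control, a scale that shrinks the change of genes with low values. On this scale 7 of the 8 genes were at least 1.5-fold higher and none was lower, and 5 were at least 2-fold higher. Among all 12557 genes whose mean over the 2 samples reached 1 FPKM, 2.47% were higher by 1.5-fold or more, 1.47% were lower by 1.5-fold or more and 0.741% were higher by 2-fold or more. Since the genes were picked with this contrast known, nothing is read from the gap between their count and those shares. The median difference was 1.04 over the 8 genes and −0.00464 over all 12557. When both columns were scaled to the same total, the median over all genes shifted to 0.102 and the share of higher among all genes past 1.5-fold went up to 77.3%, against 62.6% as deposited; the 7 of 8 count did not change.

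**Figure D2:**
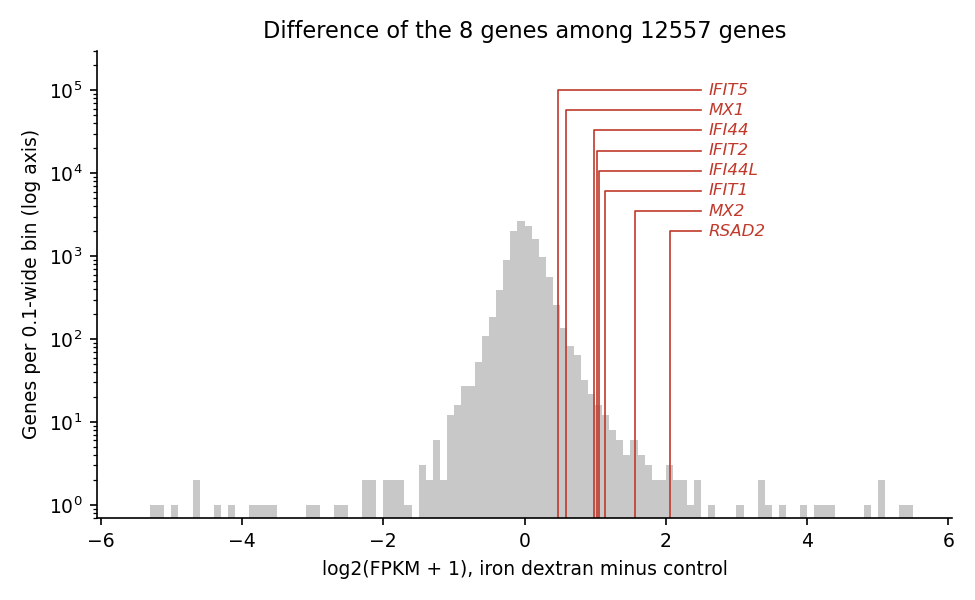
Number of genes (log axis) per bin of the log2(FPKM + 1) difference (iron dextran minus control), for the 12557 genes whose mean reached 1 FPKM. Lines mark the 8 antiviral genes, which lie between 0.48 (IFIT5) and 2.06 (RSAD2), right of the centre of the distribution.

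RSAD2 (ENSSSCG00000008648) encodes viperin, a radical SAM enzyme with an iron-sulfur cluster that in humans converts a pyrimidine nucleotide into a chain terminator of viral RNA synthesis. It had 3.57 FPKM in iron dextran and 0.0948 FPKM in control. It was the lowest of the 8 genes in control and the seventh of 8 in iron dextran. Its ratio of 37.7 rests on a control value close to 0, whose count of fragments is unknown. The difference of log2(FPKM + 1) was 2.06, which placed it at rank 28 of 12557 genes from the highest. CMPK2, the gene next to RSAD2, encodes a mitochondrial nucleotide kinase that is also induced by interferon. CMPK2 had 7.32 FPKM in iron dextran and 4.37 FPKM in control, a ratio of 1.68. The level of CMPK2 was 2.05 times that of RSAD2 in iron dextran and 46.1 times in control, so the pair differed far less in level in the treated sample.

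The MX genes encode dynamin-like GTPases that assemble around viral nucleocapsids. MX1 (ENSSSCG00000012077), which in pigs and humans acts against influenza viruses, had 35.6 FPKM in iron dextran and 23.3 FPKM in control. It was the most abundant of the 8 genes in both samples. Its difference of 0.59 on the log2(FPKM + 1) scale lay just past 1.5-fold, which is 0.585 on that scale. MX2 (ENSSSCG00000012076), whose human counterpart restricts HIV, had 3.21 FPKM in iron dextran and 0.422 FPKM in control. Its difference was 1.56, at rank 43. MX1 stood 11.1 times above MX2 in iron dextran and 55.2 times above it in control, so the low paralog had the larger ratio of the pair (7.60, against 1.53 for MX1). MX2 and RSAD2 were the 2 genes under 1 FPKM in control, and both reached a mean of 1 FPKM only through the iron dextran value, so both had to differ once they passed. Without them, an alternative added after the values had been seen, 5 of 6 genes were at least 1.5-fold higher and the median difference was 1.01.

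The IFIT genes encode RNA-binding proteins built of tetratricopeptide repeats. IFIT1 (ENSSSCG00000010452), which binds viral RNA that lacks the methylated cap of host transcripts, had 13.9 FPKM in iron dextran and 5.80 FPKM in control, a difference of 1.14. IFIT2 (ENSSSCG00000010451), a partner of IFIT1 and IFIT3 in human IFIT complexes, had 4.47 FPKM in iron dextran and 1.69 FPKM in control, a difference of 1.03. These IFIT genes had similar ratios, 2.40 and 2.65. IFIT5 (ENSSSCG00000010454), which in humans binds RNA with a terminal triphosphate, had 9.26 FPKM in iron dextran and 6.37 FPKM in control. With a difference of 0.48 it was the 1 gene of the 8 below 1.5-fold, at rank 480. The order within the family differed between the samples: IFIT1 was at 1.51 times the level of IFIT5 in iron dextran and at 0.91 times its level in control. IFIT1 stood 3.12 times above IFIT2 in iron dextran and 3.44 times above it in control, a similar gap in both.

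IFI44 and IFI44L are neighbouring paralogs whose products act against some viruses in cultured cells by means that are less well defined. IFI44 (ENSSSCG00000003763) had 6.61 FPKM in iron dextran and 2.83 FPKM in control, a difference of 0.99. IFI44L (ENSSSCG00000027660) had 6.98 FPKM in iron dextran and 2.85 FPKM in control, a difference of 1.05. Their levels were nearly equal in each sample, with IFI44L at 1.06 times IFI44 in iron dextran and 1.01 times in control. IFI44 lay just under the 2-fold rule and IFI44L just over it. The sources used here do not say how reads shared by near-identical stretches of the MX, IFIT and IFI44 paralogs were assigned, so the split of level within each family is uncertain.

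In iron dextran the order of levels from high to low was MX1, IFIT1, IFIT5, IFI44L, IFI44, IFIT2, RSAD2 and MX2. In control it was MX1, IFIT5, IFIT1, IFI44L, IFI44, IFIT2, MX2 and RSAD2. The highest of the 8 was 11.1 times the lowest in iron dextran and 246 times the lowest in control. The control range rests on RSAD2 at 0.0948 FPKM, a value whose count of fragments is unknown. The size of the gap between these ranges is therefore uncertain. IFIT1, IFIT2, IFI44 and IFI44L had ratios between 2.33 and 2.65. The genes with the lower control level had the larger ratio, with a Spearman rho of −0.905 over the 8 genes. The control value enters both measures, and with 1 sample per group no neighbours in either order can be said to differ.

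Position was taken from the order of genes in RefSeq's annotation of Sscrofa11.1, which is not the build behind these values, so no coordinates are given. In that order the 9 genes other than ISG15 fall at 4 loci: RSAD2, the MX pair, IFIT2 with IFIT3, IFIT1 and IFIT5, and the IFI44 pair. The 2 nearest protein-coding genes on each side, and any that overlap, gave 17 neighbours, of which 7 reached a mean of 1 FPKM. Among these 7 neighbours, CMPK2 was at least 1.5-fold higher and none was 1.5-fold lower. Their differences ran from −0.22 for ID2 to 0.63 for CMPK2, with a median of 0.18. LIPA, the lysosomal acid lipase, overlaps IFIT2, IFIT3 and IFIT1 in that annotation. LIPA had 17.8 FPKM in iron dextran and 18.0 FPKM in control, a ratio of 0.988. CH25H, a cholesterol hydroxylase whose product is antiviral and which is also known as an interferon-induced gene, had 4.93 FPKM in iron dextran and 4.55 FPKM in control. Beyond IFIT5 and SLC16A12, PANK1 had 5.28 FPKM in iron dextran and 3.71 FPKM in control, and beside IFI44, ADGRL4 had 4.20 FPKM in iron dextran and 3.58 FPKM in control. The sources used here do not say whether counting used strand, so reads of overlapping genes cannot be told apart. The neighbours were taken once values at some of the loci were known.

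**Figure D3:**
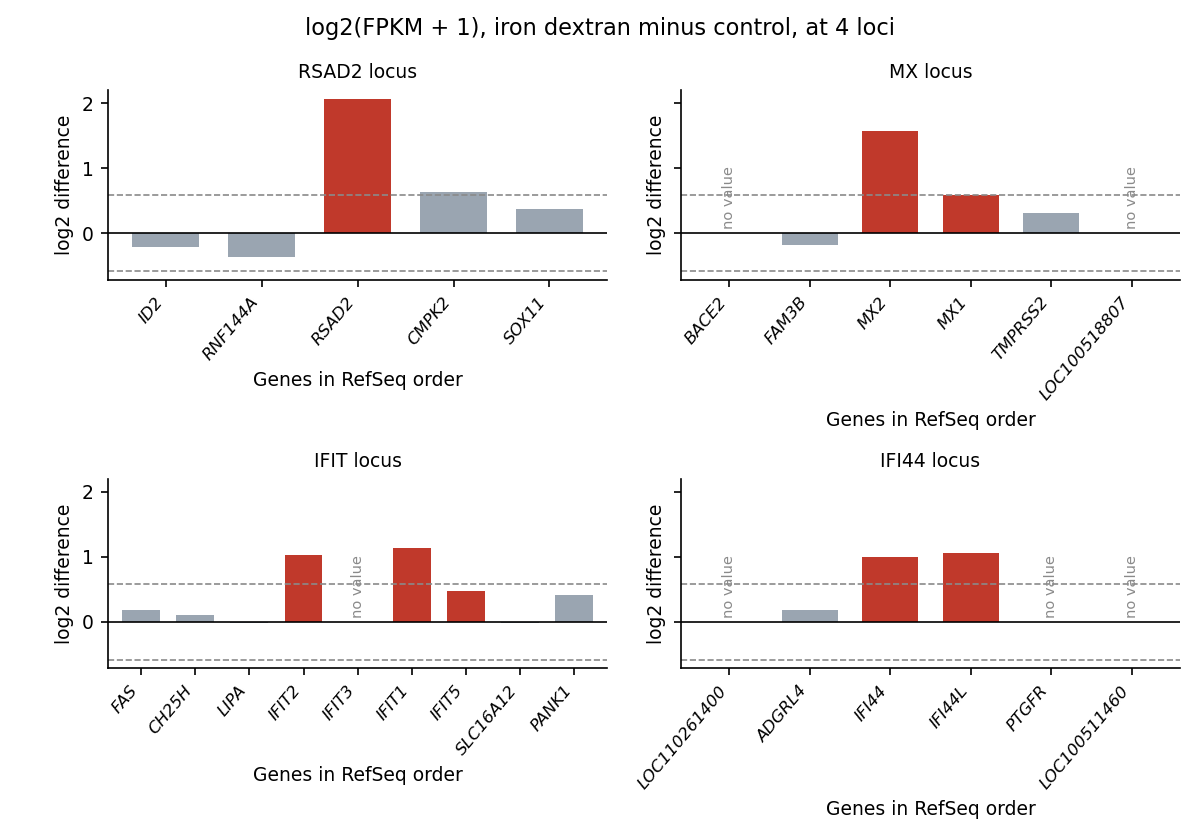
Difference in log2(FPKM + 1) between iron dextran and control for genes in RefSeq order at the 4 loci, with the antiviral genes in red, their protein-coding neighbours in grey and the 1.5-fold limits dashed. Genes without a row are marked. Bars are also drawn for neighbours under a mean of 1 FPKM: RNF144A (−0.37), FAM3B, TMPRSS2, FAS and SLC16A12. LIPA and SLC16A12 have bars too short to see (−0.02 and −0.03), while CMPK2 beside RSAD2 reaches 0.63.

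The other genes of the pathway are given by lists that were drawn up with earlier results of these data known. The interferon genes themselves were at or near 0. IFNB1 and IFNK were listed at 0 in both samples, and IFNE had 0.286 FPKM in iron dextran and was listed at 0 in control; the other 8 listed ligands had no row. An exact 0 in such a table can be a failed estimate.

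Of 9 listed receptors and Janus kinases, 4 had a value and none was past 1.5-fold. JAK1, which signals from both type I and type II receptors, had 11.8 FPKM in iron dextran and 8.25 FPKM in control, and TYK2 had 7.65 FPKM in iron dextran and 7.51 FPKM in control. IFNGR1, a chain of the interferon gamma receptor, had 26.7 FPKM in iron dextran and 25.3 FPKM in control. The median difference was 0.15 over the receptors and kinases, beside 1.04 over the 8 effector genes.

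Of the 9 STAT and IRF factors with a value, 8 were above 0 on the difference scale, with a median of 0.32. With the pseudocount, 2 were at least 1.5-fold higher. IRF1 had a plain FPKM ratio of 1.51, which the pseudocount brings under 1.5-fold. IRF7, which amplifies interferon production, had 12.9 FPKM in iron dextran and 6.75 FPKM in control. IRF9, a DNA-binding partner of STAT proteins, had 19.5 FPKM in iron dextran and 11.8 FPKM in control. Both are themselves induced by interferon. STAT2 had 9.46 FPKM in iron dextran and 7.80 FPKM in control. IRF3, which is activated by phosphorylation and is not known as an induced gene, had 15.6 FPKM in iron dextran and 19.8 FPKM in control, the 1 factor below 0.

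Among sensors of viral nucleic acid, 7 of 12 reached a mean of 1 FPKM, and, with the pseudocount, 2 of these were at least 1.5-fold higher. DHX58, a regulator of RIG-I-like receptors, had 7.52 FPKM in iron dextran and 3.10 FPKM in control. RIGI had 5.81 FPKM in iron dextran and 3.22 FPKM in control. STING1 had 2.07 FPKM in iron dextran and 1.09 FPKM in control. Its plain FPKM ratio was 1.90, which the pseudocount brings under 1.5-fold. MAVS, the mitochondrial adaptor downstream of RIGI, had 15.8 FPKM in iron dextran and 18.2 FPKM in control. The list had a median difference of 0.35.

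ISG15 itself had no value, while the enzymes that attach the ISG15 protein to others and remove it did. UBA7, the activating enzyme, had 5.94 FPKM in iron dextran and 4.64 FPKM in control, and UBE2L6, the conjugating enzyme, had 48.2 FPKM in iron dextran and 46.3 FPKM in control. HERC5, the main ISG15 ligase in humans, had 2.003 FPKM in iron dextran and 0.473 FPKM in control. HERC6, the ligase in mice, had 8.72 FPKM in iron dextran and 6.31 FPKM in control. USP18, which removes ISG15 and also dampens the type I receptor, had 6.66 FPKM in iron dextran and 2.78 FPKM in control. Of the 5 genes of this list that reached a mean of 1 FPKM, HERC5 and USP18 were at least 1.5-fold higher. HERC5 was under 1 FPKM in control and passed the filter only through iron dextran. Of 5 negative regulators measured, USP18 was the 1 past 1.5-fold, and SOCS1 had 2.55 FPKM in iron dextran and 3.10 FPKM in control.

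Among 34 other interferon-induced antiviral genes, 19 had a row and 11 reached a mean of 1 FPKM. Of these 11, 10 were above 0, 4 were at least 1.5-fold higher and none was 1.5-fold lower, with a median difference of 0.43. The 4 were HERC5 and CMPK2 as above, SAMD9, a restriction factor of poxviruses, with 2.303 FPKM in iron dextran and 0.663 FPKM in control, and OAS2. OAS2, which makes oligoadenylate messengers on binding double-stranded RNA, had 14.99 FPKM in iron dextran and 7.31 FPKM in control. HERC5, SAMD9, ZBP1 and SAMHD1 were under 1 FPKM in control and passed the filter only through iron dextran. These genes therefore had to be above 0 once they passed. ZBP1 had 1.61 FPKM in iron dextran and 0.943 FPKM in control, and SAMHD1 had 1.48 FPKM in iron dextran and 0.790 FPKM in control. With a pseudocount of 0.1 the count at least 1.5-fold higher was 7 of 11. Of genes known mainly from interferon gamma, 2 reached a mean of 1 FPKM and, with the pseudocount, neither was past 1.5-fold. IRF1 had 9.10 FPKM in iron dextran and 6.03 FPKM in control, a plain FPKM ratio of 1.51 that the pseudocount brings under 1.5-fold. GBP2 had 15.8 FPKM in iron dextran and 14.4 FPKM in control.

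**Figure D4:**
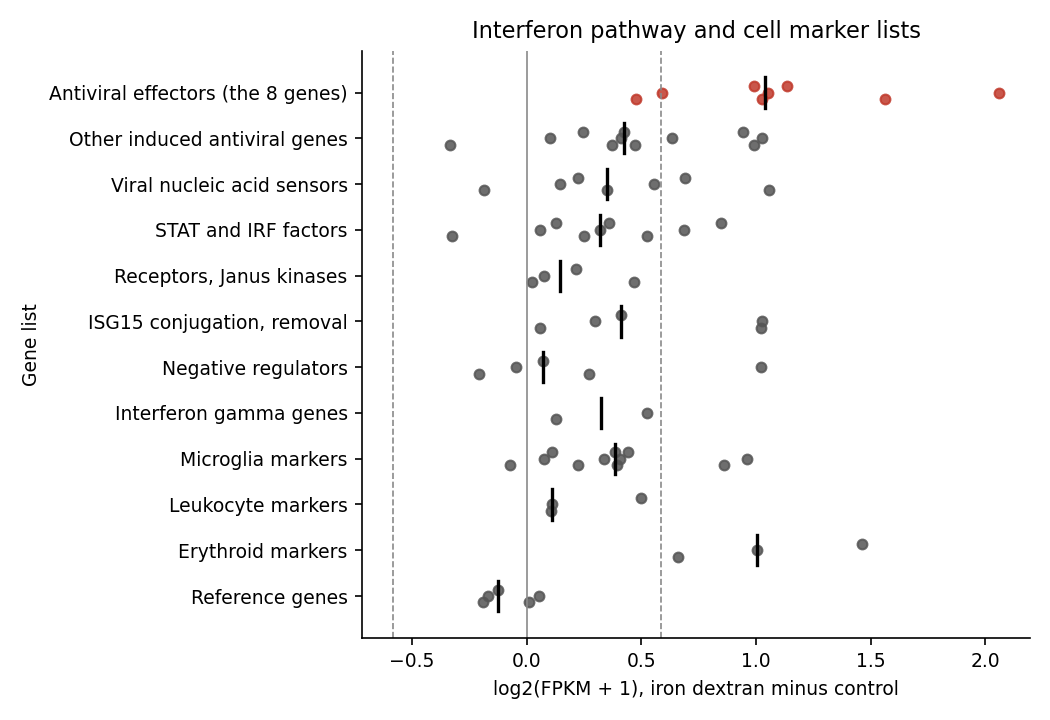
Difference in log2(FPKM + 1) between iron dextran and control for each gene whose mean reached 1 FPKM, in 12 lists; short black lines are medians and dashed lines the 1.5-fold limits. The 8 antiviral effectors have a median of 1.04, the erythroid markers 1.003, the other induced antiviral genes 0.43, the microglia markers 0.38 and the reference genes −0.12.

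The 5 genes with a symbol whose ratio was nearest to the median ratio of the 8 (2.43) were DHX58, NRARP, USP18, SAMTOR and CIMIP2C, by distance of the log2 ratio over 2 samples. Their ratios were 2.43, 2.43, 2.40, 2.45 and 2.46. Of the 12495 genes that reached a mean of 1 FPKM and were above 0 in both samples, 79 (0.632%) had a ratio at or above that median. The 8 genes were picked with this contrast known, so nothing is read from that share.

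Of 17 microglia markers, 11 had a value, 10 of these were above 0 and, with the pseudocount, 2 were at least 1.5-fold higher. CD68 and CSF1R had plain FPKM ratios of 1.57 and 1.51, which the pseudocount brings under 1.5-fold. CD68 had 1.36 FPKM in iron dextran and 0.868 FPKM in control. It reached a mean of 1 FPKM only through the iron dextran value, so it had to be above 0. The levels of the 11 markers summed to 186 FPKM in iron dextran and 148 FPKM in control, a ratio of 1.25, and none was at 0. P2RY12 had the largest difference of them, 0.96, with 20.05 FPKM in iron dextran and 9.80 FPKM in control. GPR34 had 10.1 FPKM in iron dextran and 5.14 FPKM in control. Of the 8 antiviral genes, which were picked with this contrast known, 6 had a larger difference than P2RY12. Only 2, RSAD2 and MX2, had a larger difference than the erythroid marker HBB (1.46). Both passed the filter only through iron dextran. Of 7 erythroid markers, 4 had a value and summed to 519 FPKM in iron dextran and 189 FPKM in control. The 3 that reached a mean of 1 FPKM were at least 1.5-fold higher, with HBB at 506 FPKM in iron dextran and 183 FPKM in control, and SLC4A1 was listed at 0 in control. Of 16 leukocyte markers, 10 had a value; of these, 3 reached a mean of 1 FPKM and, with the pseudocount, none differed by 1.5-fold. The 10 summed to 7.77 FPKM in iron dextran and 6.26 FPKM in control. PTPRC, the marker of all leukocytes, had 1.95 FPKM in iron dextran and 1.09 FPKM in control, a plain FPKM ratio of 1.79 that the pseudocount of 1 brings under 1.5-fold. T cell markers went both ways at low levels. CD3D had 0.304 FPKM in iron dextran and 0.105 FPKM in control, whereas CD8A had 0.118 FPKM in iron dextran and 0.403 FPKM in control and CD2 had 0.206 FPKM in iron dextran and 0.292 FPKM in control. MS4A1, of B cells, had 0.024 FPKM in iron dextran and was listed at 0 in control. With the pseudocount, astrocyte, neuron, endothelial and oligodendrocyte markers had no gene past 1.5-fold, with sums at 0.960, 0.944, 0.903 and 0.874 times control. The endothelial marker TEK had a plain FPKM ratio of 0.664, just past 1.5-fold lower, which the pseudocount brings under that limit. Of 5 oligodendrocyte markers measured, 4 were below 0, the lowest being OPALIN with 197 FPKM in iron dextran and 257 FPKM in control. The part of microglia, blood or leukocytes in the antiviral values was not tested, and in bulk tissue more cells of a type and more RNA per cell cannot be told apart. Reference genes had differences from −0.19 for ACTB to 0.05 for YWHAZ.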

How the data were processed

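Per the labels, hippocampal RNA was sequenced from 1 iron dextran and 1 control sample on an Illumina HiSeq instrument. The authors deposited 1 table of FPKM values; its columns were assigned by the letter each shares with a sample title. Per the submitters' processing notes, cutadapt 1.2.1 and TopHat were used with the builds Sscrofa10.2 and susScr3. The sources used here give neither the TopHat version nor the FPKM program, annotation or strand use. A table of Ensembl IDs and names gave symbols for 11804 of 25322 IDs. Differences of log2(FPKM + 1) were computed with pandas 2.3.3 and numpy 2.4.6 for genes whose mean reached 1 FPKM, and figures with matplotlib 3.10.9. The functions were tested on simulated data. The 10 genes and all lists were chosen with earlier results of these data known. All 10 are named; from other lists, counts and up to 4 genes with the largest difference, plus some chosen after their values were seen (TYK2, IFNGR1, STAT2, UBE2L6 and the neighbours among them). Alternatives were pseudocounts of 0.1 and 0.01, no filter or a mean of at least 5 FPKM, folds of 2 and 4, and columns centred on the median, scaled to the same total or adjusted by TMM (trimmed mean of M values, cutting 30% of M and 5% of A values per side). Promoter and protein sequences were not used here. Some genes of the lists are counted but not reported by name here.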

Additional observations from a re-analysis of the deposited data

How the results depend on the processing

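No paired analysis was possible because each group has 1 sample, and for the same reason no sample could be left out. Each of the 8 genes was above 0 and on the same side of 1.5-fold under both other pseudocounts and all 3 scalings (40 values). A mean of at least 5 FPKM left 3 genes (MX1, IFIT1 and IFIT5), of which 2 were at least 1.5-fold higher, with a median of 0.59; over all genes 113 of 8394 were. At 4-fold, 1 of 8 genes, RSAD2, was called, and 30 of 12557 over all genes were that much higher. Its difference was 2.06 with a pseudocount of 1, 4.24 with 0.1 and 5.09 with 0.01; that of MX2 was 1.56, 2.66 and 2.90. IFIT5 came closest to the limit with the same column total (0.584). Of the other induced antiviral genes, 4 were at least 1.5-fold higher, 7 with either smaller pseudocount, 2 at a mean of at least 5 FPKM (4 genes left), 1 at 2-fold and 0 at 4-fold. Over all genes, 310 were at least 1.5-fold higher and 185 lower, 558 and 332 with a pseudocount of 0.1, and 442 and 130 with the same column total. The absolute depth is unknown, so no counting error can be given for the low control values.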

Other observations

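A few interferon-responsive genes went the other way or hardly differed. OASL, a relative of OAS2, had 0.106 FPKM in iron dextran and 0.335 FPKM in control, both under 1 FPKM. IDO1, which breaks down tryptophan, had 0.334 FPKM in iron dextran and 0.828 FPKM in control. IFI35 had 3.66 FPKM in iron dextran and 4.86 FPKM in control, a difference of −0.33, and was the 1 measured gene below 0 among the other induced antiviral genes. EIF2AK2, the RNA-activated kinase that stops translation, had 0.874 FPKM in iron dextran and 0.684 FPKM in control, and ADAR, which edits double-stranded RNA, had 14.2 FPKM in iron dextran and 11.8 FPKM in control. Among genes under a mean of 1 FPKM, the sensor IFIH1 had 0.902 FPKM in iron dextran and 0.217 FPKM in control, PARP14 had 1.19 FPKM in iron dextran and 0.383 FPKM in control, GBP1 had 0.608 FPKM in iron dextran and 0.0675 FPKM in control, and TRIM25, a ubiquitin ligase that acts on RIGI, had 0.968 FPKM in iron dextran and was listed at 0 in control. All of these were picked once their values were known.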
